A study of Mus musculus with 16 samples.

Results

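The maternal mRNA decay machinery was followed through 10 of its genes in mouse two-cell embryos of 2 kinds, untreated or treated with α-amanitin. The genes were Btg4, Cnot6l, Cnot7, Pan2, Zfp36l2, Ythdf2, Tut4, Tut7, Dcp2 and Dcp1a, and every probe set that the platform annotation gives to 1 of these symbols alone was taken. Of the 10 genes, 9 had such a probe set, and Ythdf2 was not analysed here. The 9 genes had 24 of the 45037 probe sets for transcripts, and 20 of the 24 passed the filter on low values. The other 4 probe sets, 1 of Zfp36l2 and 3 of Tut4, read 0.3 to 14.7 on all arrays and were not tested. Each of the 9 genes was read from at least 1 tested probe set, among 15274 genes tested in all.

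Most mRNA of the early mouse embryo is made by the growing oocyte and is removed as meiosis resumes and as the embryonic genome is switched on in the two-cell embryo. Removal begins with shortening of the poly(A) tail by the CCR4-NOT and PAN2-PAN3 deadenylases, which adaptors and RNA-binding proteins bring to chosen transcripts. Short tails can be tagged with uridines by TUT4 and TUT7, and the message is then decapped by DCP2 with its activator DCP1A and degraded.

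The embryos of both kinds had B6 ooplasm and a B6 paternal pronucleus. The maternal pronucleus was B6 in BBB embryos and C3H in BCB embryos. Each kind was measured untreated and after treatment with α-amanitin (α-amantin in the submitters' spelling), an inhibitor of RNA polymerase II. Total RNA was hybridised to 16 one-colour arrays, 4 in each of the 4 groups. The labels give no dose or duration of the treatment, no hour of collection, no age or number of embryos per array, and nothing on whether the 4 samples of a group came from separate donors or days. P-values therefore measure only the spread between these samples, which may be technical, and the number of arrays limits the precision.

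Promoter sequences are shown for 4 members, 2 whose intensity was higher with amanitin (Btg4 and Cnot6l) and 2 whose intensity was lower (Tut4 and Tut7), so that the start of a gene can be read beside its response. They come from RefSeq on the GRCm38.p6 build, which had 7 of the 10 genes, and each runs 5′ to 3′ on the gene's strand from 250 bases before to 50 bases after the most upstream listed start. They lie at chr9:51115751-51116050 on the plus strand for Btg4, chr5:96161941-96162240 on the minus strand for Cnot6l, chr4:108459160-108459459 on the plus strand for Tut4 and chr13:59823098-59823397 on the minus strand for Tut7. Capitals mark every match, on either strand, to the TATA box TATAAA, the CCAAT box CCAAT, the GC box GGGCGG or the E-box CACGTG. These were found in 13.6%, 37.4%, 35.7% and 7.15% of 32851 RefSeq promoters of the same length.
Btg4: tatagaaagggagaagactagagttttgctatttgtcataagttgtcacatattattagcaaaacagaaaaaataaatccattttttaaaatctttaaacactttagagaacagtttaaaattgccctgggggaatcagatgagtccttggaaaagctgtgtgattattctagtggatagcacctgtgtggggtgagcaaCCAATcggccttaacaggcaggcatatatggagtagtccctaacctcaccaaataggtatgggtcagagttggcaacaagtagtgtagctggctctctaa
Cnot6l: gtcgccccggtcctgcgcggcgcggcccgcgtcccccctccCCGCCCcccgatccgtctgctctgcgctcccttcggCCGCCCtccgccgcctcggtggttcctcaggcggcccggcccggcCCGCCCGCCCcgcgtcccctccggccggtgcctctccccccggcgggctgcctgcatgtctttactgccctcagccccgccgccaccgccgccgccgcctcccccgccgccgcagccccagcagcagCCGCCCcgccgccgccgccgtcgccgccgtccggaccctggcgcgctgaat
Tut4: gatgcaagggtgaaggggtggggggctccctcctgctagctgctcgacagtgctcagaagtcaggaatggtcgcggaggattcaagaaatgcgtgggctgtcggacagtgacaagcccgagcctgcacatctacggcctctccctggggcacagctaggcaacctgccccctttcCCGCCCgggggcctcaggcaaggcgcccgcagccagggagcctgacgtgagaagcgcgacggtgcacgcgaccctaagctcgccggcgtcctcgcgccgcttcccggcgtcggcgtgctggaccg
Tut7: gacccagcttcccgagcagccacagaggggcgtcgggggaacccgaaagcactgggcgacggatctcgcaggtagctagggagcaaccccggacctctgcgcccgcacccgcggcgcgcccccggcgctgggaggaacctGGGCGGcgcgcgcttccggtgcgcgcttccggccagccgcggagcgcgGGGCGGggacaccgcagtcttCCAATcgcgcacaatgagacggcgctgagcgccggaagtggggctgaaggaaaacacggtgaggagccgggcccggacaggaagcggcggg
The Btg4 window was the poorest in CpG of the 7 promoters matched, with 39.0% GC, 1 CpG and 1 CCAAT box. The median promoter had 52.7% GC and 7 CpG (quartiles 3 to 20), and 5.4% of promoters had fewer CpG than Btg4. The Cnot6l window stood at the other end of the range, with 82.7% GC, 49 CpG and 5 GC boxes, and 99.0% of promoters had fewer CpG. Those of Tut4 (68.0% GC, 28 CpG and 1 GC box) and Tut7 (73.3% GC, 41 CpG, 1 CCAAT box and 2 GC boxes) were also rich in CpG. Thus the windows of members that were higher with amanitin spanned both ends of the CpG range, and these matches describe letters only.

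The deposited values were linear intensities. Without the highest and lowest 2% of values their mean was 150 on each array, from which a scaling of the arrays to a common level by the authors is inferred, since the sources used here name none. Control probe sets, which detect RNAs added in the laboratory rather than mouse transcripts, read higher on the treated arrays. On the log2 scale, the treated BBB arrays lay 0.55 above the untreated ones for the 9 hybridization controls and 1.86 above for the 12 poly-A controls, and the treated BCB arrays 0.81 and 1.88 above. The 75th percentile of intensity differed by -31.0 in BBB and -27.8 in BCB. For each of the 6 differences the exact permutation p (two-sided) was 0.0286, the smallest that 4 against 4 arrays allow, and 0.0572 after Benjamini-Hochberg adjustment over 12 tests. Every change with amanitin below is therefore a change relative to the other transcripts of the same array. In such pooled RNA, fewer cells of a type and less RNA per cell cannot be told apart. The summed intensity of 5 tested markers of the two-cell stage, of 7 listed, was 9226 to 10635 on the arrays of untreated BBB and 9090 to 10077 in BCB, against 233 to 434 and 284 to 526 with amanitin. The summed intensity of 6 of 6 oocyte markers was 6508 to 7544 in BBB and 6745 to 7610.0 in BCB, against 16710 to 17071 and 14470 to 15955 with amanitin. The mean was higher with amanitin for 6 of them in BBB and 5 in BCB. The exception, Zp3, had means of 739 and 747 in BBB and of 714 and 683 in BCB, untreated and treated. Of 15 listed markers of cumulus and granulosa cells 14 had a probe set, and 11 of these were tested. Over the 14, the sum was 2836 to 3617 in BBB and 3375 to 4183 in BCB, against 526 to 653 and 605 to 662 on the treated arrays. The markers Amh, Hsd3b1 and Tnfaip6 were not tested, with mean intensities of 1.8, 4.3 and 6.2 in untreated BBB and at most 12.3 in any group. Most of the sum in untreated BBB came from Amhr2 and Gja1, with means of 2086 and 894. These 2 were the only tested cumulus and granulosa markers with a lower mean in treated embryos, at 58.9 and 29.0 in BBB, and the other 9 had a higher mean in both kinds, as Cyp11a1 (62.6 and 133.9 in BBB) and Kitl (85.6 and 162.7). The part of the control shift and of these markers in the results below was not tested, except for the scalings to the controls given with each group of genes.

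With amanitin, 5 of the 9 genes were higher in both kinds of embryo, 3 were lower in both, and 1 passed the threshold in neither. The higher genes were Btg4, the 2 CCR4-NOT deadenylases Cnot6l and Cnot7, and both decapping genes, Dcp2 and Dcp1a. The lower genes were Zfp36l2, which brings the deadenylase to AU-rich messages, and the 2 uridyl transferases Tut4 and Tut7, and the gene that passed in neither was Pan2. These calls are limma's, at a Benjamini-Hochberg adjusted p under 0.05 over 31953 probe sets, on log2(intensity + 16). By that rule, 37.1% of all genes were higher and 33.1% lower in BBB, and 39.9% were higher and 31.9% lower in BCB. The treatment thus changed most genes, and the members' shares of 5 and 3 in 9 are to be read against that background. The median change of the 9 genes was 0.82 in BBB, against 0.11 over all genes, and 0.77 in BCB, against 0.17. Over the 20 tested probe sets, 13 were higher, 4 lower and 3 not called in BBB, where 34.3% of all probe sets were higher and 31.9% lower. In BCB, 13 were higher, 5 lower and 2 not called, where 37.6% of all were higher and 30.3% lower. Both amanitin comparisons and the comparisons of kinds below draw on the same 4 groups of arrays.

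**Figure D1:**
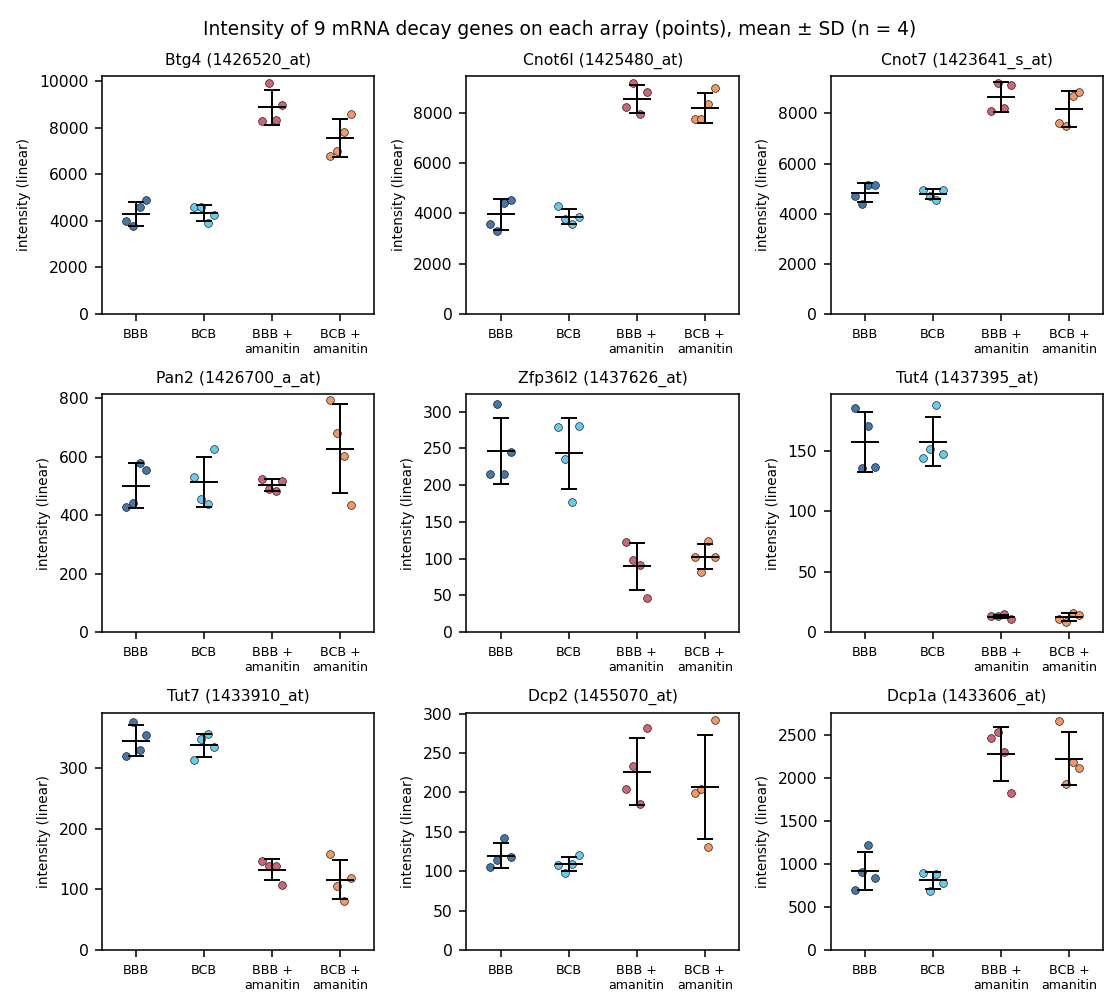
Intensity of the 9 genes on each array, with groups along the horizontal axis and linear intensity from 0 on the vertical axis; points are single arrays, and bars give the mean ± SD (n = 4). Treated and untreated points are apart in both kinds for every gene shown but Pan2. With amanitin Btg4, Cnot6l, Cnot7, Dcp2 and Dcp1a lie above and Zfp36l2, Tut4 and Tut7 below. The log2 changes of the first 5 fall below 0 once arrays are scaled to the poly-A controls. The share of all genes with such a gap was not computed. In BBB 37.1% of all genes were called higher and 33.1% lower, and in BCB 39.9% and 31.9%.

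Btg4 encodes the adaptor that joins CCR4-NOT to messages under translation and is needed for clearance of maternal mRNA in mouse oocytes and embryos. Its probe set 1426520_at read 4009, 3761, 4586 and 4895 on the 4 BBB arrays and 8303, 9924, 8329.6 and 8993 on the 4 BBB arrays with amanitin. In BCB it read 4611, 4597, 3921 and 4236 untreated and 6808, 7018, 7810.4 and 8606 with amanitin. All 8 treated arrays lay above all 8 untreated ones. The BBB means were 4313 ± 520 (SD, n = 4) untreated and 8888 ± 761 treated, and the BCB means 4341 ± 330 and 7561 ± 820. The log2 change was 1.04 in BBB, a 2.06-fold rise (SE 0.09, 95% interval 0.87 to 1.22, limma adjusted p = 1.73e-10). In BCB the log2 change was 0.80, or 1.74-fold, with a limma adjusted p of 1.99e-08. The rise depended on the scale of the arrays, since the BBB and BCB changes were 0.49 and -0.01 with the hybridization controls as the scale, -0.81 and -1.08 with the poly-A controls, and 0.43 and 0.20 under quantile normalization.

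Cnot6l and Cnot7 encode the catalytic subunits of CCR4-NOT, of the endonuclease-exonuclease-phosphatase family and the DEDD family respectively. Cnot6l probe set 1425480_at read 3570.0, 3301, 4434 and 4548 in BBB and 8236, 9179, 7952 and 8824 in BBB with amanitin. The BCB arrays read 4282, 3792, 3562 and 3861 untreated and 7752, 7744, 8365 and 8984 with amanitin. The groups did not overlap, and the treated means were 8548 ± 556 in BBB and 8211 ± 592 in BCB, against 3963 ± 621 and 3874 ± 301 untreated. BBB embryos gave a log2 change of 1.12 and BCB embryos one of 1.08, with limma adjusted p of 6.76e-11 and 1.23e-10. All 4 Cnot6l probe sets were higher with amanitin, by 1.01 to 1.74 in BBB and by 0.98 to 1.53 in BCB. The steepest, 1425481_at, went from 1213 ± 181 to 4050.4 ± 220 in BBB and from 1359.9 ± 317 to 3870.3 ± 82.6 in BCB. The dimmest, 1434311_at, went from 126 ± 12.7 to 271 ± 32.9 in BBB and from 139 ± 23.8 to 289.9 ± 39.0 in BCB. The probe sets of this gene thus moved the same way, by unequal amounts.

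For Cnot7, probe set 1423641_s_at read 4688, 4388, 5148 and 5147 in BBB and 8096, 9204, 8215 and 9130.0 in BBB with amanitin. In BCB the untreated arrays read 4961, 4704, 4531 and 4952 and the treated arrays 7627, 7504, 8708 and 8862. No treated array overlapped an untreated one, and the log2 change was 0.84 in BBB (limma adjusted p = 1.79e-10) and 0.77 in BCB (8.61e-10). A suffix of _s_at marks probes that several transcripts can share, so the reading may not be of Cnot7 alone. The 2 other probe sets of the gene disagreed with each other. Probe set 1460665_a_at rose from 424 ± 45.3 to 978 ± 139 in BBB and from 415 ± 38.7 to 848 ± 117 in BCB, with log2 changes of 1.17 and 0.998. Probe set 1430519_a_at read 195 ± 8.77 in BBB and 167 ± 22.7 with amanitin, and 197 ± 26.0 and 182 ± 21.2 in BCB. Its groups overlapped in both kinds, its changes of -0.22 and -0.10 had limma adjusted p of 0.135 and 0.489, and the call for Cnot7 therefore rests on 2 of its 3 probe sets. With the hybridization controls as the scale, probe set 1423641_s_at of Cnot7 stood at 0.28 (BBB) and -0.04 (BCB), and 1425480_at of Cnot6l at 0.56 and 0.27. With the poly-A controls both were lower, at -1.02 and -1.11 for Cnot7 and -0.74 and -0.79 for Cnot6l. Under quantile normalization both were called higher but by less, at 0.21 and 0.15 for Cnot7 and 0.51 and 0.49 for Cnot6l.

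Pan2, the catalytic subunit of the PAN2-PAN3 deadenylase, was not called on the scale as deposited, unlike Cnot6l and the brightest probe set of Cnot7. The difference between these genes was not tested. Under quantile normalization Pan2 stood at 0.17 in BBB and 0.38 in BCB, beside 0.21 and 0.15 for that Cnot7 probe set. Its probe set 1426700_a_at read 429, 441, 579 and 553 in BBB and 522, 488, 482 and 517 in BBB with amanitin. Readings in BCB were 532, 455, 439 and 628 untreated and 795, 683, 601 and 433 with amanitin. Treated and untreated arrays overlapped in both kinds, and the lowest of the BCB readings came from treated array 4. The means were 500.4 ± 76.5 and 503 ± 20.3 in BBB and 513 ± 86.3 and 628 ± 152 in BCB. The log2 change was 0.02 in BBB (95% interval -0.29 to 0.33, limma adjusted p = 0.926) and 0.26 in BCB (-0.04 to 0.57, adjusted p = 0.12). Both intervals hold changes of either sign. Without treated BCB array 4 the change in BCB was 0.43 with a limma adjusted p of 0.00792, and without untreated BCB array 4 it was 0.36 (0.0448). Quantile normalization gave 0.38 in BCB with a limma adjusted p of 0.0313, while the scale of the hybridization controls gave -0.52 in each kind and that of the poly-A controls -1.78 and -1.56, all called lower.

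Zfp36l2 encodes a zinc-finger protein that binds AU-rich elements and recruits CCR4-NOT, and it is needed for early embryonic cleavage in mice. Probe set 1437626_at read 215, 310.3, 215 and 246 in BBB and 123, 98.4, 91.2 and 46.3 in BBB with amanitin. On the BCB arrays it read 279, 236, 177 and 281 untreated and 102, 81.9, 125 and 102 with amanitin. Every treated array lay below every untreated one, with log2 changes of -1.36 in BBB (limma adjusted p = 2.01e-06) and -1.12 in BCB (2.83e-05). Its second tested probe set, 1451034_at, went the other way at a low intensity. There the mean went from 27.9 ± 5.61 to 51.5 ± 7.10 in BBB and from 26.9 ± 5.32 to 45.1 ± 10.9 in BCB. The log2 changes were 0.63 and 0.50, with limma adjusted p of 0.00162 and 0.00874. The opposite signs of the probe sets depended on the scale. They were also found under quantile normalization, with 1451034_at called higher at 0.88 (BBB) and 0.65 (BCB). The same held with arrays centred on the median, where 1451034_at stood at 0.72 and 0.52. With the hybridization controls 1451034_at stood at 0.25 and -0.04 and was called in neither kind. With the poly-A controls it changed by -0.68 and -0.78, lower as 1437626_at was. The fall at 1437626_at was present under both control scalings, at -1.85 and -1.84 with the hybridization controls and -2.98 and -2.77 with the poly-A controls.

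**Figure D2:**
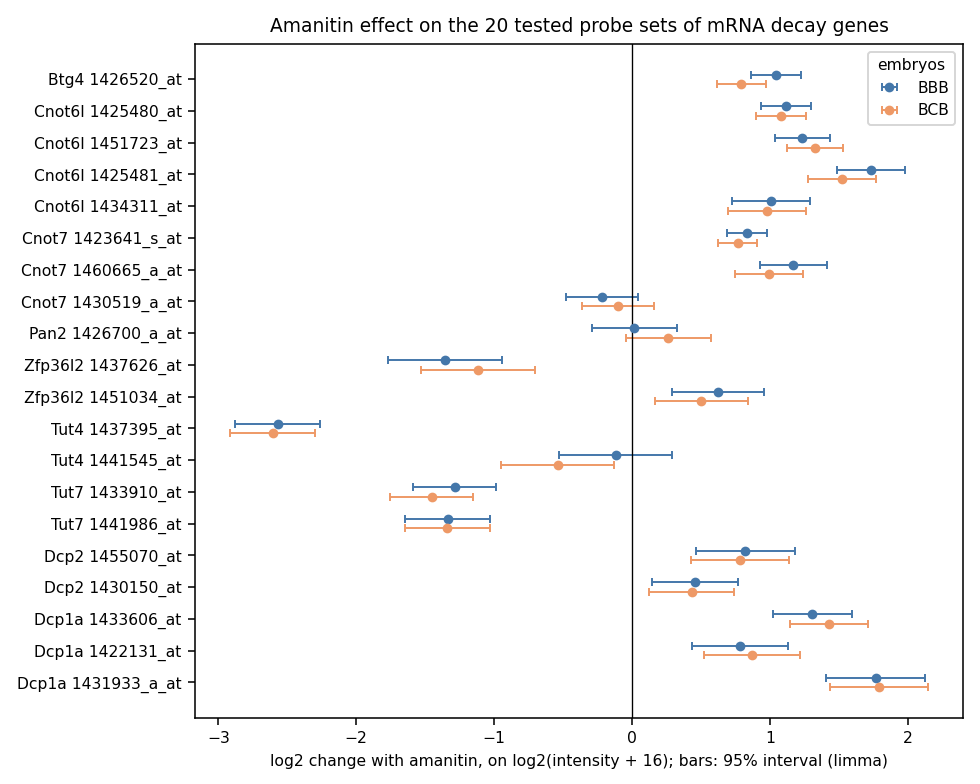
Change with amanitin for the 20 tested probe sets, on the log2(intensity + 16) scale, in BBB and BCB embryos, with 95% intervals from limma. The probe sets of Cnot6l, Dcp2 and Dcp1a lie to the right of 0, those of Tut4 and Tut7 to the left, and the probe sets of Zfp36l2 and of Cnot7 disagree; with the poly-A controls as the scale 1 of the 20 probe sets, 1431933_a_at of Dcp1a, stays above 0 in each kind.

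Tut4 and Tut7 encode terminal uridylyl transferases that add uridines to short poly(A) tails and to some microRNA precursors, and mouse oocytes need them for a normal maternal transcriptome. Probe set 1437395_at of Tut4 read 185, 136, 170.2 and 136 in BBB and 13.0, 13.1, 14.7 and 10.9 in BBB with amanitin. In BCB it read 144, 151, 188 and 147 untreated and 11.1, 8.3, 16.2 and 14.4 with amanitin. The groups lay far apart, and the treated readings were near each array's 40th percentile of intensity, which was 10.8 to 14.1. The log2 change was -2.57 in BBB, or 5.93-fold lower on the log2(intensity + 16) scale, and -2.61 in BCB, or 6.09-fold lower, with limma adjusted p of 2.81e-13 and 2.24e-13. At so low an intensity the size depends on the pseudocount: it was -3.50 and -3.58 with a pseudocount of 1 and -1.51 and -1.53 with 64. Its size is therefore not ranked against those of the other members. The other tested Tut4 probe set, 1441545_at, was dim throughout, with means of 20.1 ± 7.45 and 17.1 ± 6.13 in BBB and 22.1 ± 8.89 and 9.8 ± 3.71 in BCB. Its change was -0.12 in BBB (limma adjusted p = 0.614) and -0.54 in BCB (0.0199), where treated and untreated arrays overlapped.

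For Tut7, probe set 1433910_at read 319.5, 376, 328 and 354 in BBB and 146, 138, 138 and 107 in BBB with amanitin. The BCB arrays read 312, 346, 356 and 334 untreated and 158, 105, 81.5 and 118 with amanitin. The groups did not overlap, and the log2 change was -1.28 in BBB (limma adjusted p = 3.52e-08) and -1.45 in BCB (4.56e-09). Both Tut7 probe sets gave nearly the same size of change. The second, 1441986_at, went from 262 ± 27.3 to 94.3 ± 14.9 in BBB and from 243 ± 25.9 to 87.4 ± 21.0 in BCB, a log2 change of -1.34 in each kind. Under the 4 other scalings run, the change in BBB was -0.98 to -2.99 for Tut7 probe set 1433910_at and -2.35 to -3.82 for Tut4 probe set 1437395_at, and both were called lower in each kind.

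Dcp2 encodes the enzyme that removes the cap, and Dcp1a an activator of it. Dcp2 probe set 1455070_at read 106, 114, 142 and 118 in BBB and 205, 233, 186 and 282 in BBB with amanitin. Readings in BCB were 108, 98.4, 109.8 and 121 untreated and 199.8, 205, 130.4 and 292 with amanitin. The groups were apart in both kinds, with treated BCB array 3 close above the highest untreated array. The log2 change was 0.82 in BBB (limma adjusted p = 0.000205) and 0.78 in BCB (0.000344). Its second probe set, 1430150_at, changed less, by 0.46 in BBB (0.00956) and by 0.43 in BCB (0.0136), and its BCB groups overlapped.

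Dcp1a was higher with amanitin on all 3 of its probe sets. Probe set 1433606_at read 704, 916, 1227 and 846 in BBB and 2464, 2534, 2309 and 1832 in BBB with amanitin. On the BCB arrays it read 898, 693, 891 and 783 untreated and 2665, 1939, 2186 and 2120.0 with amanitin. All treated arrays lay above all untreated ones, and the log2 change was 1.31 in BBB (limma adjusted p = 1.03e-08) and 1.43 in BCB (2.37e-09). Probe set 1431933_a_at rose from 130.0 ± 23.6 to 488 ± 117 in BBB and from 136 ± 31.8 to 503 ± 41.6 in BCB, by 1.77 and 1.79. Probe set 1422131_at rose from 281 ± 15.4 to 512 ± 145 and from 279 ± 59.5 to 519 ± 62.3, by 0.78 and 0.87. With the hybridization controls as the scale, Dcp1a probe set 1433606_at stood at 0.76 (BBB) and 0.63 (BCB), and Dcp2 probe set 1455070_at at 0.32 and 0.06. With the poly-A controls, Dcp1a stood at -0.53 and -0.43, the second without a call, and Dcp2 at -0.87 and -0.89.

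The rises and falls can be set beside the shift of all genes under each scaling. On the poly-A scale all genes had a median of -1.17 (BBB) and -1.13 (BCB), and 0 of the 20 probe sets were called higher, with 18 lower in the first and 17 in the second. On that scale 1.01% and 0.838% of all genes were called higher and 82.4% and 81.1% lower. With the hybridization controls that median was -0.25 and -0.36, and 9 probe sets were higher and 6 lower in BBB against 5 and 7 in BCB. Of all genes, 21% were higher and 43.5% lower in BBB on that scale, and 15.1% and 48.3% in BCB. Under quantile normalization 13 probe sets were higher and 4 lower in BBB, and 14 and 5 in BCB. There 42.1% of all genes were higher and 30% lower in BBB, and 42.4% and 29.9% in BCB. Relative to the median of all genes, Btg4, Cnot6l, Cnot7, Dcp2 and Dcp1a lay above it and Zfp36l2, Tut4 and Tut7 below it with either set of controls, in both kinds. Under quantile normalization, where that median was 0.22 and 0.23, Cnot7 (0.21 and 0.15) lay just under it in both kinds and Btg4 (0.20) in BCB. The sign of the 5 higher genes thus depended on the scale. The 3 lower genes, each read from its brightest tested probe set, were below 0 under each of the 5 scalings. The other tested probe set of Zfp36l2, 1451034_at, was called higher under quantile normalization, at 0.88 (BBB) and 0.65 (BCB). With the poly-A controls that probe set was called lower, at -0.68 and -0.78, so the direction for Zfp36l2 depended on probe set and scale.

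**Figure D3:**
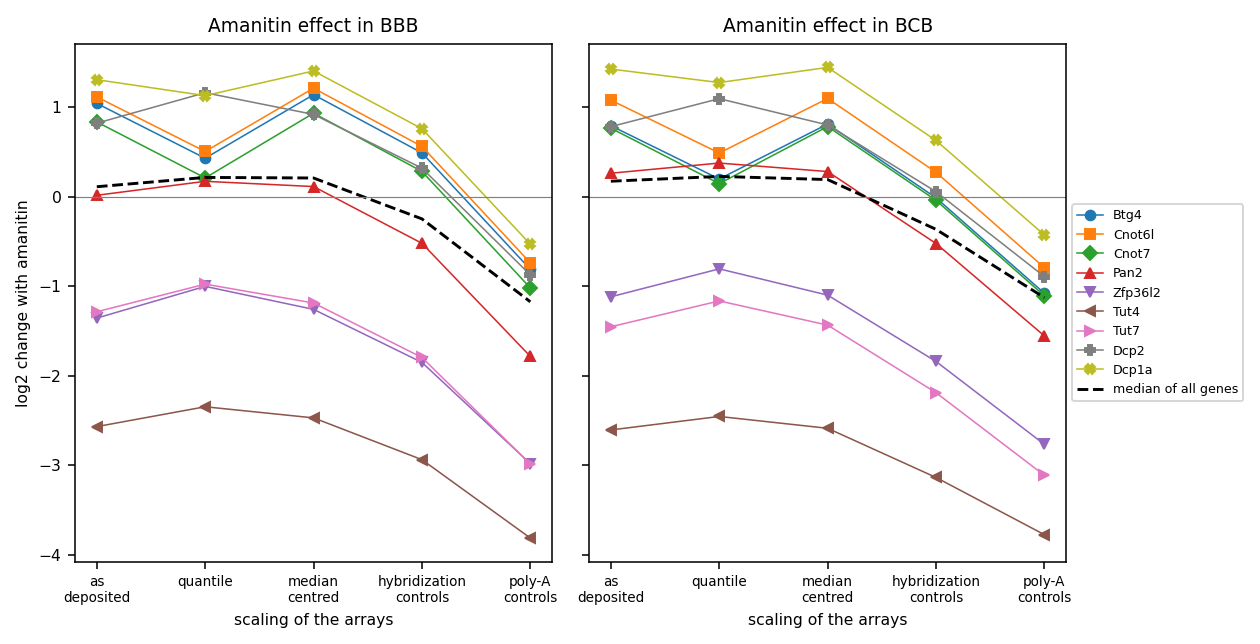
Change with amanitin of the 9 genes under 5 scalings of the arrays, in BBB (left) and BCB (right), on the log2 scale; each line is a gene, and the dashed line is the median of all genes. Tut4, Tut7 and Zfp36l2 lie below the dashed line throughout, and the other lines move down with it, to values between -0.43 and -1.78 with the poly-A controls.

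None of the 9 genes passed the threshold between the kinds of embryo. Among untreated embryos, BCB minus BBB ranged from -0.15 for Dcp1a to 0.03 for Pan2, and the smallest limma adjusted p was 0.989. The 95% intervals ran from -0.48 to 0.39, so that each bounds a difference at 1.39-fold or less. With amanitin, BCB minus BBB ranged from -0.24 for Btg4 to 0.28 for Pan2, with intervals from -0.51 to 0.63 and a smallest limma adjusted p of 0.318. The count of genes at an unadjusted p under 0.05 was 0 untreated and 1 with amanitin, which was Btg4 (limma adjusted p = 0.318), where 7.06% and 10.7% of all genes had such a p. For the interaction, the change with amanitin in BCB less that in BBB, the range was -0.25 for Btg4 (95% interval -0.50 to 0.00) to 0.25 for Pan2, with a smallest adjusted p of 0.597 and 0 genes at an unadjusted p under 0.05, against 8.05% of all genes. By the adjusted rule limma called 0.655% of all genes between untreated kinds, 0.0786% between treated kinds and 0.255% in the interaction. The 20 probe sets likewise had 0 calls in each of the 3 comparisons. A difference between embryos with a C3H and a B6 maternal pronucleus was thus not detectable in these genes with 4 arrays a group, within the intervals given.

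**Figure D4:**
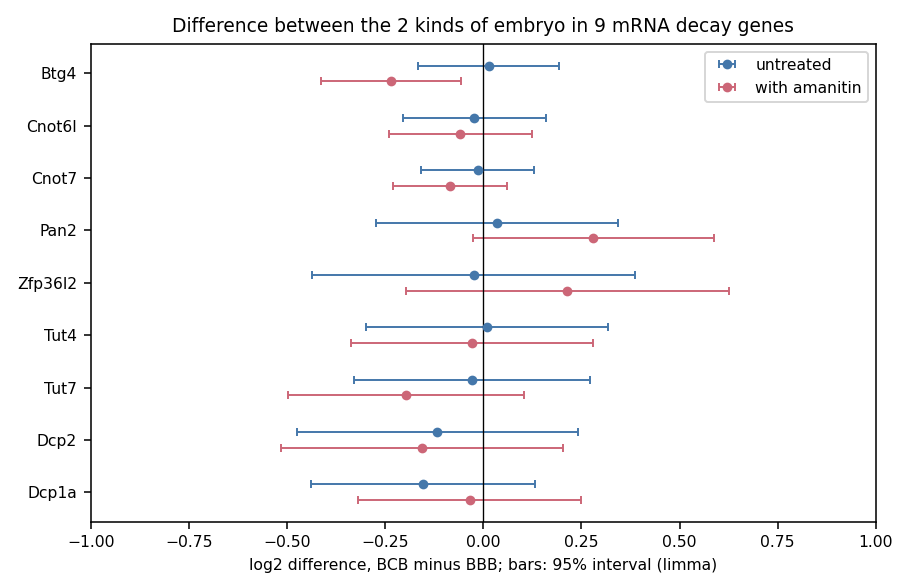
Difference between kinds, BCB minus BBB, for the 9 genes on the log2 scale, untreated and with amanitin, with 95% intervals from limma. The points lie between -0.24 and 0.28, and no gene passed the adjusted threshold.

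Other genes of mRNA decay, listed by role, moved in both directions with amanitin. Of 122 listed genes 111 were tested. Each was read from its brightest tested probe set, and its other probe sets were not looked at singly here. In BBB 49 were higher, 45 lower and 17 not called, with a median of 0.12 against 0.11 over all genes. In BCB 51 were higher, 45 lower and 15 not called, with a median of 0.07 against 0.17. Over all genes 37.1% were higher and 33.1% lower in BBB, and 39.9% and 31.9% in BCB. The counts of each list below are to be read against these shares. With the poly-A controls as the scale 0 were higher in either kind and 104 (BBB) and 103 (BCB) were lower, where 82.4% and 81.1% of all genes were lower. The scale of the hybridization controls left 29 higher in BBB and 16 in BCB, where 21.0% and 15.1% of all genes were higher. Between kinds, 0 of the 111 were called by limma in each of the 3 comparisons, with 9, 10 and 8 at an unadjusted p under 0.05 for untreated embryos, treated embryos and the interaction. Over all genes such a p was found for 7.06%, 10.7% and 8.05%.

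Among 13 tested CCR4-NOT subunits and BTG/TOB adaptors, 5 were higher and 5 lower in each kind. Cnot4, a ubiquitin ligase subunit, went from 797 ± 135 to 2037 ± 215 in BBB (log2 change 1.34), and Cnot2, a scaffold subunit, rose by 1.31 in BCB. Under the poly-A scale these were -0.49 and -0.56. The adaptors Btg1 and Tob1, relatives of Btg4, moved opposite to it on the scale as deposited. Tob2 was lower too (-2.66 in BBB and -2.30 in BCB), and Btg2 was not called (0.24 and 0.35). With the poly-A controls Btg4 was lower as well (-0.81 and -1.08), as were Btg1 (-5.24 in BBB) and Tob1 (-5.01 in BCB). Btg1 went from 819 ± 70.8 to 51.0 ± 14.5 in BBB (-3.66), and Tob1 changed by -3.48 in BCB. Chosen after the values were seen, Cnot6 and Cnot8, the paralogues of Cnot6l and Cnot7, stood at 1.16 and -0.09 in BBB, and the second was not called.

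The list of PAN3, PARN, nocturnin and poly(A)-binding proteins had 9 higher and 3 lower of 12 in BBB and 8 higher and 3 lower in BCB, with medians of 0.77 and 0.74. Pabpn1l, a poly(A)-binding protein of oocytes that acts with BTG4 in mice, rose by 1.53 in BBB and 1.32 in BCB, and was -0.02 and -0.29 under the poly-A scale. Pabpc1, the main cytoplasmic poly(A)-binding protein, went from 4880.2 ± 252 to 522 ± 77.4 in BBB (-3.20) and changed by -3.31 in BCB. Both bind the tail, and their readings went in opposite directions relative to all genes.

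Of the 19 tested genes listed as recruiters of decay, a list that also holds Elavl1 and Elavl2, 8 were higher and 8 lower in BBB. In BCB 9 were higher and 8 lower. Tnrc6a, which links Argonaute proteins to deadenylases, went from 432 ± 19.7 to 1826 ± 112 in BBB (2.04) and rose by 2.01 in BCB, and stood at 0.21 and 0.17 under the poly-A scale without a call. Celf1, a binder of GU-rich elements, went from 1294 ± 186 to 76.6 ± 7.66 in BBB (-3.81) and changed by -4.53 in BCB. In this list too, genes were found on both sides of the median.

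The list of other terminal nucleotidyl transferases and 3′ exonucleases, which also holds partners such as Lin28a, had 7 higher and 12 lower of 23 in BBB. In BCB it had 8 and 13, and the medians were -0.72 and -0.57. Lin28a, the RNA-binding partner of TUT4 on let-7 precursors, rose by 1.97 and 1.76, and was at 0.14 and -0.09 under the poly-A scale. Exosc5, an exosome subunit, changed by -2.59 and -2.60. The 21 other decapping factors and 5′ exonucleases had 12 higher and 4 lower in BBB and 12 and 5 in BCB, with medians of 0.41 and 0.38. Lsm6, of the LSM ring that activates decapping, rose by 1.81 and 1.66, which became 0.04 and -0.12 under the poly-A scale. Xrn2, a nuclear 5′ exonuclease, changed by -1.49 in BBB, and Ddx6, a helicase of decapping complexes, by -1.07 in BCB.

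Writers, readers and erasers of m6A had 5 higher and 10 lower of 16 in BBB and 5 and 9 in BCB, with medians of -0.70 and -0.51. Ythdf3, a reader of the same family as Ythdf2, went from 697 ± 97.3 to 2600.4 ± 151 in BBB (1.88) and rose by 1.94 in BCB, which became 0.05 and 0.09 under the poly-A scale. Rbm15, of the writer complex, changed by -3.78 in BBB and Igf2bp1, a reader that stabilises messages, by -3.72 in BCB. The 7 tested genes of nonsense-mediated decay split 3 higher and 3 lower in BBB and 4 and 2 in BCB, with Smg9 at 0.59 and 0.61 (-0.81 and -0.76 under the poly-A scale) and Smg5 at -1.46 and -1.48.

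**Figure D5:**
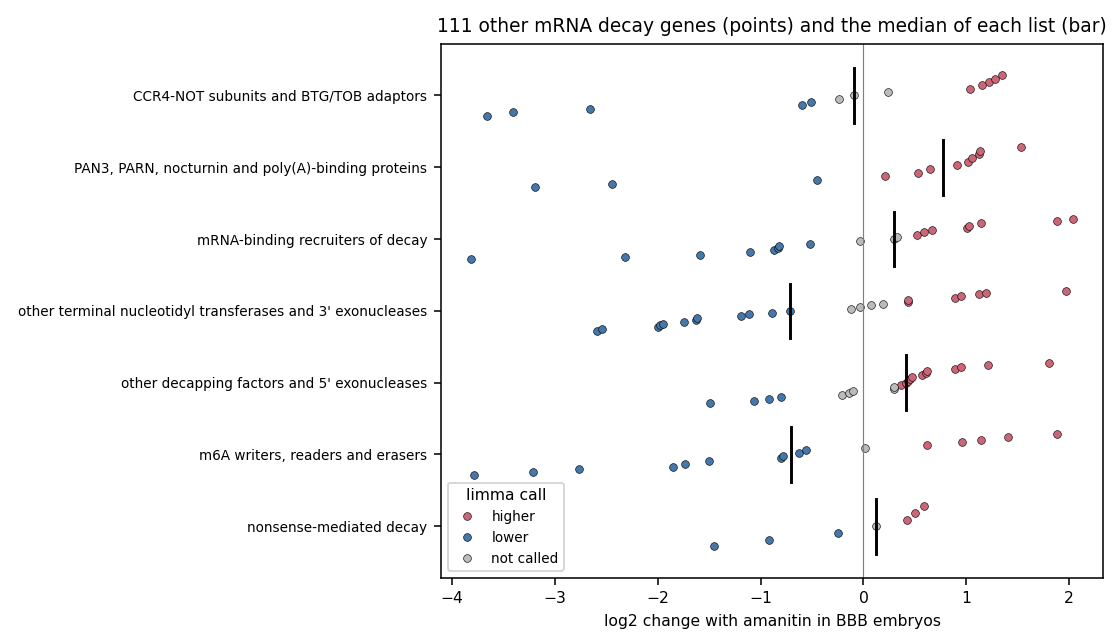
Change with amanitin in BBB embryos for the 111 tested genes of the 7 lists, on the log2 scale; each point is a gene, coloured by limma's call, and a bar marks the median of each list. Every list has points on both sides of 0, with medians from -0.72 for other nucleotidyl transferases and 3′ exonucleases to 0.77 for PAN3, PARN, nocturnin and poly(A)-binding proteins. With the poly-A controls as the scale 0 of the 111 are called higher, where 1.01% of all genes are.

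The genes whose log2 intensity over the 16 arrays was most like that of each member were found by Pearson's r, as a description, since the 16 arrays share 4 groups and a large treatment difference. Btg4 was closest to Parl (r = 0.991) and Odf2 (0.989), Cnot6l to Hdlbp (0.9965) and Bmp5 (0.9964), and Cnot7 to Rasa2 (0.9966) and Gdap1 (0.995). Tut4 was closest to Nolc1 (0.996) and Prmt6 (0.996), and Tut7 to Ttc26 (0.986) and Gtf2i (0.986). For Zfp36l2 they were Rrp9 (0.966) and Recql4 (0.965), for Dcp2 Arhgap15 (0.952) and Abca9 (0.949), and for Dcp1a Ttc7 (0.984) and Ttc23 (0.980). Pan2 had the weakest likeness, with Cyb5b at 0.893 and Sdha at 0.879. No member was among the 2 nearest genes of another member.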

How the data were processed

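The 16 one-colour arrays, 4 per group, measured total RNA from mouse two-cell embryos. The labels' protocols name a Picopure kit for extraction and an ENZO kit for the biotin label. The values the authors deposited are linear intensities with 1 decimal. Their mean without the highest and lowest 2% is 150 on each array, from which a scaling to a common level is inferred; its method and the software were not given in the sources used here. The series' platform annotation gave 1 symbol to 34945 of 45037 probe sets, several to 932 and none to 9160.

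The deposited intensities were taken as log2(intensity + 16). Probe sets that reached the 40th percentile of an array on 4 or more arrays, 31953 in all, were tested. One linear model over all 16 arrays, with a mean per group, was fitted in R 4.3.3 with limma 3.58.1 (empirical Bayes with an intensity trend), and p-values were Benjamini-Hochberg adjusted over all probe sets tested. Each gene took the value of the tested probe set whose mean was highest. All members were named. Of each other list, the called genes with the largest rise and the largest fall were named per kind. The members and lists were chosen with earlier results of these data known. Alternatives were quantile normalization, median centring, scaling to either set of controls, pseudocounts of 1 and 64, other filters, probe sets averaged, only the groups compared, a replicate block, no trend, array weights and leaving out each array. On simulated data with 31953 probe sets, the fit recovered 78% of 100 probe sets changed by 1 on the log2 scale and 100% of 100 changed by 2, with 7 false calls. Only these probe sets were changed, with independent noise and no shift in the scale of the arrays. The simulation is thus unlike the amanitin comparisons, where most genes were called, and does not give their rate of false calls.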

Additional observations from a re-analysis of the deposited data

Results flagged for a closer look

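Within each group of 4 arrays, the gap between the most extreme array and its nearest neighbour was compared with the group's range for each of the 20 tested probe sets. In 4 of 80 groups that share was above Dixon's critical value, which is 5.0%, and chance alone gives about 1 in 20. For Cnot6l probe set 1451723_at the share was 0.856, where array 3 of BCB with amanitin read 4206 and the nearest array 3767. For Cnot7 probe set 1460665_a_at it was 0.835, where BCB array 1 read 358 and the nearest 429. For Tut4 probe set 1437395_at it was 0.834, where BCB array 3 read 188 and the nearest 151. For Dcp1a probe set 1431933_a_at it was 0.896, where array 4 of BBB with amanitin read 314 and the nearest 534. None of these arrays reached the range of the group it was compared with under amanitin.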

How the results depend on the processing

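The scale of the arrays moved these results most, and the cause was not tested. Scaled to the poly-A controls, 0 members were higher and 9 lower in BBB, and 0 higher and 8 lower in BCB. Of the other decay genes 0 were higher in either kind, and 104 in BBB and 103 in BCB were lower. On that scale 1.01% of all genes were higher and 82.4% lower in BBB, and 0.838% and 81.1% in BCB. The counts are to be read against those shares. The reversed members in BBB and BCB were Btg4 (-0.81 and -1.08), Cnot6l (-0.74 and -0.79), Cnot7 (-1.02 and -1.11), Pan2 (-1.78 and -1.56), Dcp2 (-0.87 and -0.89) and Dcp1a (-0.53 and -0.43). Scaled to the hybridization controls, 2 members were higher in BCB, and 29 other decay genes in BBB and 16 in BCB. There 21% of all genes were higher in BBB and 15.1% in BCB. Pan2 then stood at -0.52 in each kind, and Btg4 at -0.011 and Cnot7 at -0.040 in BCB. Of the members' values under all alternatives, 181 of 189 in BBB and 176 of 189 in BCB kept their side of the threshold and, where called, their direction. Between kinds all stayed without a call, but uncalled values could change sign, as Btg4 between untreated kinds (-0.049 to 0.078 without 1 array). Leaving out 1 array at a time, 5 members were higher in BBB and 5 to 6 in BCB, and 3 lower in each. Of the other decay genes between untreated kinds, 1 was lower with the poly-A scale, 1 lower with a pseudocount of 64, 2 higher with only the 2 groups compared, 1 higher with array weights and 0 to 1 lower without 1 array; with amanitin 0 to 1 were higher without 1 array. Deviations of arrays with the same number correlated at -0.0871 to 0.107 (median -0.0050, 24 pairs), and 3 of 16 arrays were closest to their own number. These values show no pairing by number, but whether samples shared donors or days cannot be told from them. With the replicate block the members' counts were 5 higher and 3 lower in both kinds and 0 between kinds. Other decay genes were then 48 higher and 45 lower in BBB and 50 and 45 in BCB. Probe sets near the 40th percentile, as Tut4 with amanitin, have sizes of change limited by their low signal.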
